A study of Mus musculus with 12 samples.

Results

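The genes described here are 35 mouse genes of protein folding and quality control in the endoplasmic reticulum (ER): chaperones, disulfide isomerases, factors of ER-associated degradation (ERAD), the translocon, and the sensors that watch over them. They were chosen by name, from what their products do and with earlier results of these data known, and all 35 were found among the 47937 genes counted, of which 11760 had enough reads for a test, the 35 included. The cells were macrophages derived from C57BL/6 bone marrow by 7 days in CSF-1 (20 ng/ml), and every group carried the same genotype and growth factor. Resting macrophages (M0), macrophages given IFNγ (50 ng/ml) together with LPS (20 ng/ml), and each of these with the DGAT1 inhibitor T863 (DGAT1i, 50 μM) made up 4 groups, with 3 libraries in each. DGAT1 makes the triglycerides stored in lipid droplets, which form from the ER membrane. The stimulated and inhibitor groups are labelled with 18 h, whereas the labels of the M0 libraries carry no time. T863 is a chemical inhibitor, so that no group lacks the Dgat1 gene itself. In the labels, 2 of the 3 libraries of M0 with DGAT1i carry another compound number in 1 field and T863 in another, and they were read as T863. The labels do not tie libraries to separate animals or cultures, so that p-values measure the spread between these libraries.

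Proteins that are secreted or sit in membranes enter the ER through the Sec61 channel, are held by chaperones such as BiP, and are cross-linked by disulfide isomerases. Those that fail to fold are pulled back across the membrane, tagged with ubiquitin and destroyed, which is the work of ERAD. Unfolded proteins set off the unfolded protein response (UPR) through 3 membrane sensors, IRE1, ATF6 and PERK, and the ATF6 and IRE1 arms are known to switch on chaperone and ERAD genes. Macrophages secrete many cytokines on activation and thereby load this machinery.

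Library totals lay between 4996014 and 6621671 reads, and counts were scaled by TMM and are given as CPM, of which 1 was worth 4.28 to 7.58 reads; SE stands for standard error. The 8 macrophage markers had reads in every group. Of the 8 neutrophil markers, Ly6g had 0 reads in all 12 libraries, and the summed level of the list was 31.6 to 38.7 CPM in M0, 15.2 to 25.5 after IFNγ + LPS, 22.9 to 29.0 in M0 with DGAT1i and 63.0 to 81.0 after IFNγ + LPS with DGAT1i. Lymphocyte and stromal markers summed to at most 0.375 and 2.11 CPM. The activation genes Nos2, Acod1, Cxcl9, Il12b and Gbp2 summed to at most 5.29 CPM in both M0 groups and to at least 20564 CPM in both IFNγ + LPS groups, as the labels say.

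The promoters of several members carry the ER stress response element, through which ATF6 is known to act together with NF-Y. Promoter windows from 250 bases before to 50 bases after the start of a gene were taken from RefSeq on GRCm38.p6 for the 30 members that had an entry, which left out Manf, Hyou1, Sec61a1, Derl1 and Atf6. These members had 31 entries, and in 26 of them bases 21 to 50 after the start lay in a GENCODE transcript of the gene, the exceptions being Ubxn4, Pdia4, Os9, Dnajc3 and Bcap31. Of the genes whose windows are printed here, the RefSeq start of Dnajc3 lies 44 bases and that of Herpud1 9 bases before the start of the GENCODE gene, and those of Hspa5, Hsp90b1 and Pdia6 lie 120, 65 and 44 bases after it, so that the Hspa5 window falls inside the GENCODE gene. They were searched on both strands for ERSE (CCAAT, then 9 bases of any kind, then CCACG), for ERSE-II (ATTGG, 1 base of any kind, then CCACG) and for the UPR element (TGACGTGG). Matches to these 3 did not overlap in any member. The windows printed here are those of Hspa5, which encodes BiP, of 4 genes that were lower after IFNγ + LPS, and of Syvn1, a holder of the same letters that was higher. Each runs 5′ to 3′ along the strand of its gene, with the fixed letters of the match in capitals (or their reverse complement, CGTGG and ATTGG, where the match lies on the other strand). The Hspa5 window lies at chr2:34772013-34772055 on the plus strand, Pdia6 at chr12:17266479-17266521 on the plus strand, Dnajc3 at chr14:118937815-118937857 on the plus strand, Herpud1 at chr8:94386365-94386399 on the plus strand, Hsp90b1 at chr10:86705521-86705668 on the minus strand and Syvn1 at chr19:6046520-6046562 on the plus strand.
Hspa5: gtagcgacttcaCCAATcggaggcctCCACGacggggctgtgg
Pdia6: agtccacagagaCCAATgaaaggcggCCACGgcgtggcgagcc
Dnajc3: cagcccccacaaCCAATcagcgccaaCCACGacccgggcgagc
Herpud1: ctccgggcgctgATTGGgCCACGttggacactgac
Hsp90b1: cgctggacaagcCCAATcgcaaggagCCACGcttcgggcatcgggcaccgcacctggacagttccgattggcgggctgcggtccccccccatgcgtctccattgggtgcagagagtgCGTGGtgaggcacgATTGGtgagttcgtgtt
Syvn1: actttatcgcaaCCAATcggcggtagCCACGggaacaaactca

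ERSE letters stood in 8 of the 30 member promoters, those of Hspa5, Hsp90b1, Calr, Canx, Pdia6, Dnajc3, Creld2 and Syvn1, against 39 of all 32851 promoters in the same table (0.119%). Hsp90b1 held 2 matches, at bases -212 to -194 and -107 to -89 from the start. ERSE-II letters stood in Herpud1, at bases -52 to -42, and in Dnajb11, at bases 8 to 18, against 12 of all promoters (0.0365%). The UPR element stood in 0 of the 30 windows and in 222 of all promoters (0.676%). With 1 of the 10 fixed letters of ERSE changed, 6 member promoters matched (Derl2, Herpud1, Hsp90b1, Pdia3, Pdia4 and Sel1l) and 461 of all promoters (1.4%). The members were chosen by name for what their products do, so that more matches than among all promoters are no independent result. Shares over all promoters count entries, those of the members included, whereas members are counted as genes. A match is a description of letters, and a window without one says only that these letters are not in it.

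**Figure D1:**
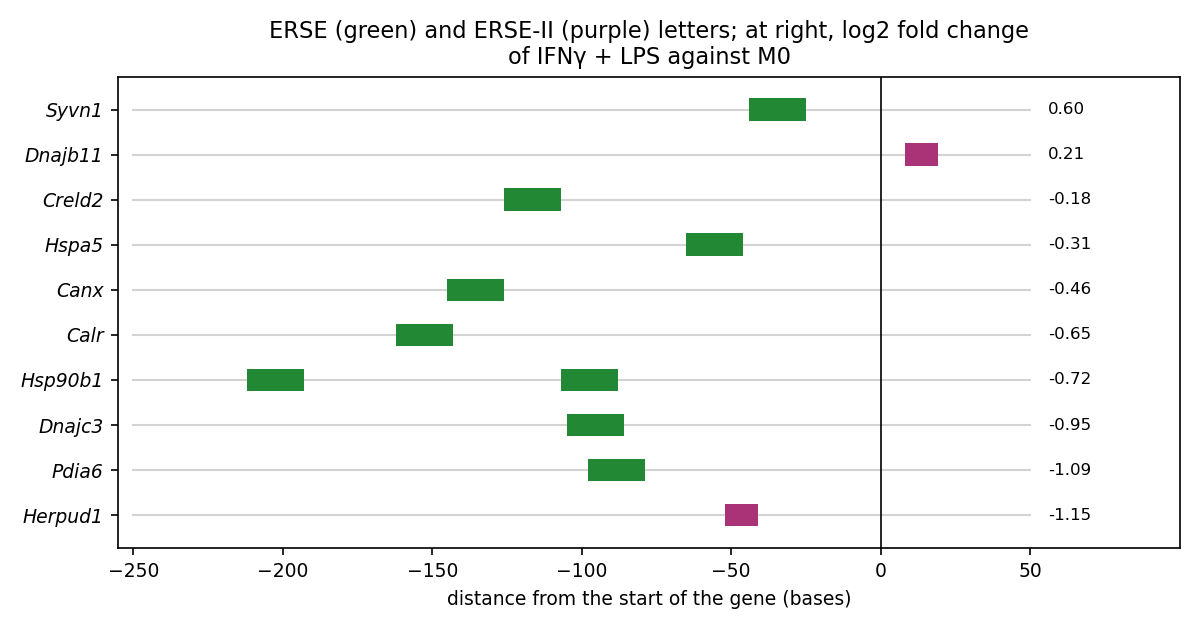
Position of ERSE (green) and ERSE-II (purple) letters in the promoter windows of the 10 members that hold them, in bases from the RefSeq start of the gene, with the log2 fold change of IFNγ + LPS against M0 at the right. Matches of 9 genes lie before the start and that of Dnajb11 lies after it, and 8 of the 10 fold changes are negative, from -0.18 in Creld2, which was not past the threshold, to -1.15 in Herpud1.

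Per kilobase of exon, the lectin chaperone Calr had the highest level in M0, at 338 ± 15.4 CPM per kb (SD, n = 3), before Hspa5 at 212 ± 6.56, Hsp90b1 at 199 ± 8.53 and P4hb at 176 ± 0.879. The lowest level was that of the sensor Eif2ak3, at 6.14 ± 0.327 CPM per kb. Calr stayed the highest and Eif2ak3 the lowest in all 4 groups. Sdf2l1 ranked 7 in M0 with 95.8 ± 8.69 CPM per kb, level within its spread with Bcap31 at 91.1 ± 2.22, and ranked 19 after IFNγ + LPS with 23.0 ± 1.71. Edem2 ranked 26 in M0 with 16.5 ± 0.743 CPM per kb, level within its spread with Atf6 at 16.5 ± 0.0774 and Sec62 at 16.3 ± 1.04 among others. It ranked 14 after IFNγ + LPS with 30.3 ± 0.943, close to Pdia4 at 29.0 ± 2.59. After IFNγ + LPS with DGAT1i it ranked 10 with 43.5 ± 2.20, level with Edem1 at 43.7 ± 1.85.

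As a share of all counted reads, the 35 genes took 0.865% to 0.912% in the M0 libraries and 0.479% to 0.506% after IFNγ + LPS. With DGAT1i the shares were 0.802% to 0.839% in M0 and 0.468% to 0.509% after IFNγ + LPS. The stimulated groups lay below both M0 groups without overlap, and the groups with and without DGAT1i overlapped after IFNγ + LPS. A share of reads amounts to scaling by library size. On this scale genes at large were also lower after IFNγ + LPS, 59.5% of the 11760 tested, with a median of -0.46 in log2. Part of the fall in share was therefore common to other genes. Under TMM the members summed to 7481 ± 192 CPM (SD, n = 3) in M0 and 5745 ± 81.8 after IFNγ + LPS. A ratio within a library is free of scaling: reads on the 16 folding genes (chaperones, disulfide isomerases, DnaJ proteins and other luminal factors) were divided by reads on the 10 ERAD genes. This ratio was 4.57, 4.44 and 4.65 in the M0 libraries and 3.25, 3.00 and 3.24 after IFNγ + LPS. It was 4.24, 4.17 and 4.24 in M0 with DGAT1i and 3.29, 2.82 and 2.96 after IFNγ + LPS with DGAT1i. The ratio was thus lower in every stimulated library than in every M0 library, and lower in each M0 library with DGAT1i than in each without. No test was made on these sums, since the members were not drawn at random. In bulk RNA, fewer cells that express a gene and less of its RNA per cell cannot be told apart.

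**Figure D2:**
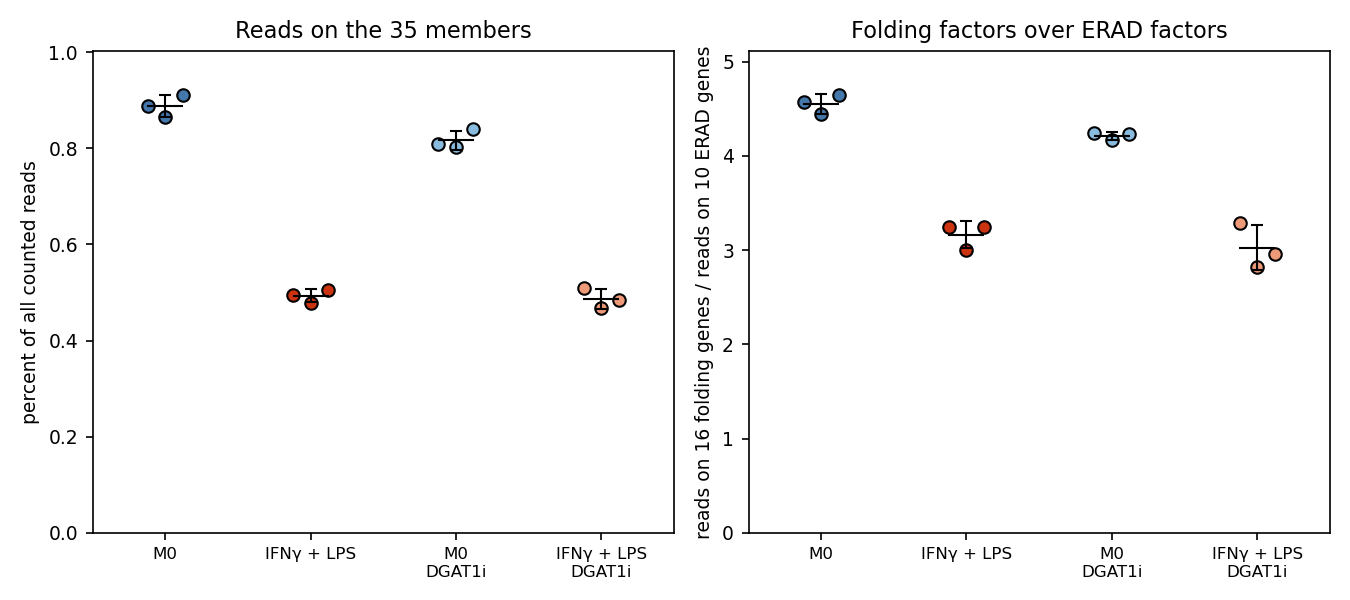
Left, percent of all counted reads that fell on the 35 genes; right, reads on 16 folding genes divided by reads on 10 ERAD genes in the same library. Points are libraries and lines the mean ± SD of 3 libraries. The share is 0.889% on average in M0 and 0.493% after IFNγ + LPS, and the ratio 4.55 and 3.17. On the scale of the share, genes at large were also lower after IFNγ + LPS, with a median of -0.46 in log2.

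IFNγ + LPS against M0 asks how activation changed these genes. Activation lowered most of the folding machinery and split ERAD: 22 of the 35 members fell and 7 rose, and 6 did not pass the test. By the quasi-likelihood test of edgeR, with p-values adjusted over all genes (Benjamini-Hochberg) and a threshold of 0.05, 36.2% of the 11760 genes tested were lower and 37.1% higher. The median log2 fold change was -0.24 over the members and 0.01 over all genes. All 5 chaperones and all 4 disulfide isomerases fell, as did 3 of the 4 genes of sensors and their target, 2 of 4 DnaJ proteins, 2 of the 3 other luminal factors and 2 of 5 translocon genes, whereas 6 of the 10 ERAD genes rose and 4 fell. The macrophage markers summed to 13131 to 14358 CPM in M0 and 8323 to 8980 after IFNγ + LPS, with Lyz2 at 9641 and 2956 CPM on average but Adgre1, Fcgr1 and Mertk higher after stimulation. The dendritic cell markers summed to 0.133 to 0.696 and 5.62 to 7.16 CPM, of which Xcr1 made up 5.53 CPM on average after stimulation, and the part of either in these results was not tested. Libraries were scaled by TMM, with factors close to 1.19 in each M0 library and of 0.846 to 0.869 after IFNγ + LPS. Scaling by library size alone would move the median of all genes to -0.46, and under it 2 members were higher, Edem2 and Ubxn4, and 32 lower, against 19.9% of all genes higher and 59.5% lower. Relative to the median of all genes, that of the members was -0.25 under both scalings. A change of scaling shifts all genes nearly alike, so that this agreement follows by construction and is no check of the result.

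**Figure D3:**
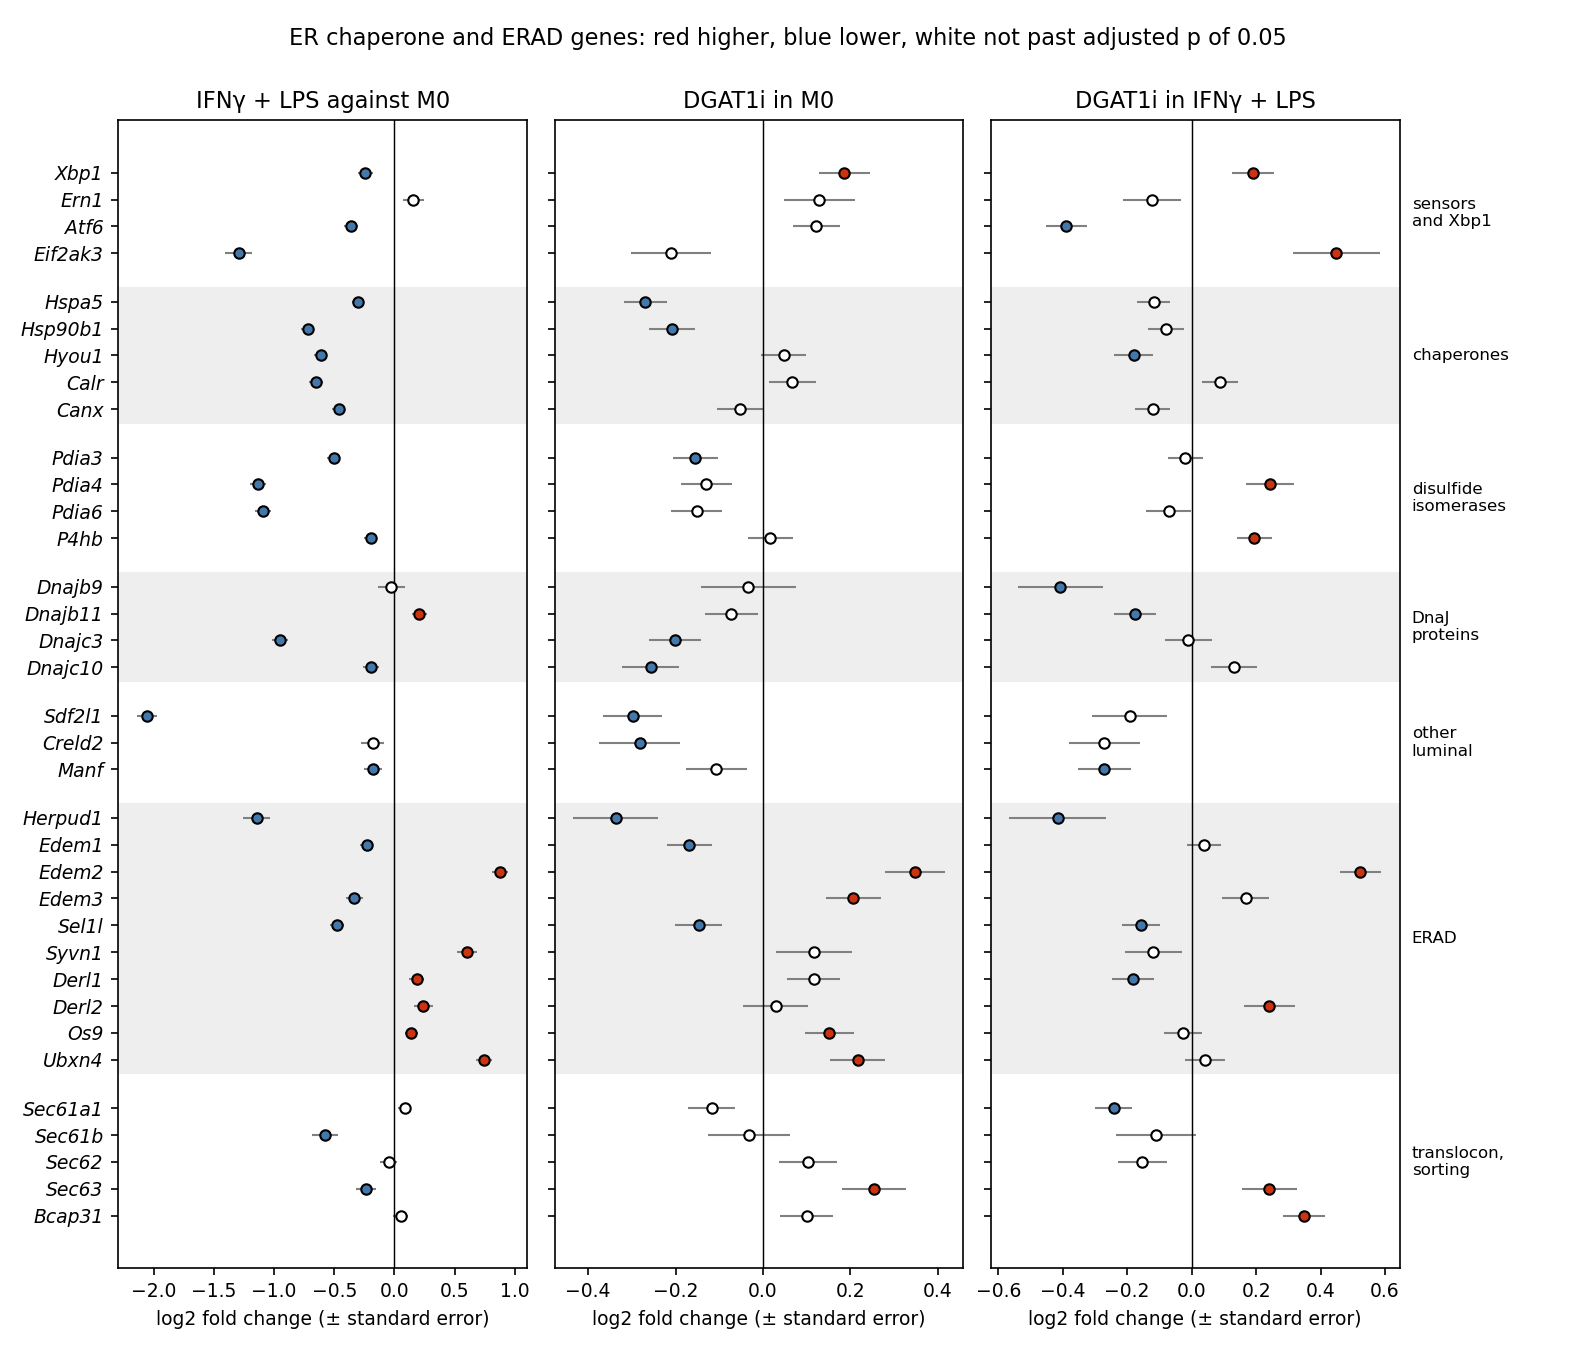
Log2 fold change ± standard error of the 35 members for IFNγ + LPS against M0, DGAT1i in M0 and DGAT1i in IFNγ + LPS, ordered by role; red, higher; blue, lower; white, not past the threshold. The horizontal scales differ between panels: activation spans -2.06 in Sdf2l1 to 0.88 in Edem2, and the DGAT1i responses -0.41 to 0.52.

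Of the sensors and their target, 3 fell and Ern1 did not pass the test. Eif2ak3, the gene of PERK, a kinase that slows translation (ENSMUSG00000031668.14, chromosome 6 from 70844515 to 70905245), read 34.7, 38.4 and 37.9 CPM in M0, 12.8, 16.7 and 15.4 after IFNγ + LPS. Every stimulated library lay well below every M0 library. The log2 fold change was -1.30 (SE 0.11, edgeR adjusted p = 2.39e-15), or 0.407 of the M0 level. Atf6, whose product is cleaved in the Golgi to release a transcription factor (ENSMUSG00000026663.6, chromosome 1 from 170704674 to 170867771), read 152, 153 and 152 CPM in M0, 119, 118 and 119 after IFNγ + LPS. These groups did not overlap, and the log2 fold change was -0.36 (SE 0.06, edgeR adjusted p = 1.44e-07). Xbp1, the transcription factor gene whose mRNA IRE1 splices (ENSMUSG00000020484.18, chromosome 11 from 5520659 to 5525893), read 130.2, 124 and 120.0 CPM in M0, 102, 104 and 109.6 after IFNγ + LPS. Its stimulated libraries all lay below the M0 libraries, with a log2 fold change of -0.24 (SE 0.06, edgeR adjusted p = 0.000528); counts per gene do not separate the spliced from the unspliced form. Ern1, the gene of IRE1 itself, read 57.8, 53.7 and 61.8 CPM in M0, 61.3, 73.1 and 58.4 after IFNγ + LPS. Its groups overlapped and the log2 fold change of 0.16 (SE 0.09, edgeR adjusted p = 0.0943) did not pass the threshold, which it passed with replicate 3 of either group left out, over single libraries left out with adjusted p between 0.0290 and 0.596.

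Among the chaperones, Hspa5 encodes BiP, the Hsp70 of the ER and the main holder of unfolded chains (ENSMUSG00000026864.13, chromosome 2 from 34771970 to 34777547). It read 887, 875 and 928 CPM in M0, 744, 693 and 738 after IFNγ + LPS. The groups were separate and the log2 fold change was -0.31 (SE 0.05, edgeR adjusted p = 2.50e-07). The fall of Hsp90b1, the ER member of the Hsp90 family (ENSMUSG00000020048.13, chromosome 10 from 86690209 to 86705509), was larger: it read 809.7, 764 and 832 CPM in M0, 467, 488 and 507 after IFNγ + LPS. No library of one group reached the other, and the log2 fold change was -0.72 (SE 0.05, edgeR adjusted p = 9.61e-18). An antisense pseudogene shares 415 exon bases with Hsp90b1, and since it is not stated whether counting used strand, reads there cannot be assigned to either. The lectin chaperones Calr and Canx, which hold glycoproteins by a trimmed sugar, had log2 fold changes of -0.65 and -0.46 (edgeR adjusted p = 1.07e-15 and 2.48e-11). Hyou1, a nucleotide exchange factor of BiP, fell from 208 ± 4.13 CPM (SD, n = 3) to 136 ± 4.64, with a log2 fold change of -0.61 (SE 0.06, edgeR adjusted p = 7.75e-15). The 5 chaperone calls held without any single library.

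The disulfide isomerases, which form and rearrange disulfide bonds, fell unevenly. Pdia4 (ENSMUSG00000025823.9, chromosome 6 from 47796141 to 47813430) read 147, 158 and 154 CPM in M0, 67.0, 65.0 and 76.6 after IFNγ + LPS. Pdia6 (ENSMUSG00000020571.12, chromosome 12 from 17266545 to 17284770) read 256, 251 and 268 CPM in M0, 121, 119.9 and 122 after IFNγ + LPS. Every stimulated library of both genes lay below every M0 library, by far more than the spread within a group. Their log2 fold changes were -1.13 (SE 0.07, edgeR adjusted p = 1.23e-22) and -1.09 (SE 0.06, edgeR adjusted p = 1.19e-20). Pdia3, the partner of the lectin chaperones, had -0.51 (edgeR adjusted p = 2.14e-12), and P4hb, the founding member of the family, -0.20 (edgeR adjusted p = 0.000761). P4hb was thereby the least changed of the 4, at 505 ± 2.51 CPM in M0 and 440.2 ± 25.7 after IFNγ + LPS.

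DnaJ proteins hand clients to BiP and moved in both directions. Dnajc3 (ENSMUSG00000022136.7, chromosome 14 from 118937976 to 118981697) read 135, 129 and 146 CPM in M0, 71.8, 66.8 and 73.1 after IFNγ + LPS. All stimulated libraries were lower than all M0 libraries, and the log2 fold change was -0.95 (SE 0.07, edgeR adjusted p = 1.81e-19). Dnajb11, a co-chaperone that binds clients directly (ENSMUSG00000004460.16, chromosome 16 from 22857845 to 22879634), read 108, 109 and 119 CPM in M0, 125, 134 and 129 after IFNγ + LPS. It was higher in every stimulated library, with a log2 fold change of 0.21 (SE 0.06, edgeR adjusted p = 0.00227), but lower, at -0.26, under scaling by library size. Dnajc10, a reductase that opens disulfides before degradation, had a log2 fold change of -0.19 (SE 0.07, edgeR adjusted p = 0.00951), a call that was lost without M0 replicate 1 (adjusted p up to 0.0909). Dnajb9, a co-chaperone that brings BiP to IRE1, had -0.03 (edgeR adjusted p = 0.848), with overlapping groups.

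The largest change of the 35 genes was that of Sdf2l1, a small luminal protein that works with BiP and Dnajb11 (ENSMUSG00000022769.7, chromosome 16 from 17130138 to 17132383). It read 109, 95.5 and 114 CPM in M0, 25.3, 23.8 and 27.5 after IFNγ + LPS. The highest stimulated library was far below the lowest M0 library. Its log2 fold change of -2.06 (SE 0.09, edgeR adjusted p = 3.14e-29) put it at 0.241 of its M0 level, and the call held with each library left out. Manf, a secreted factor that binds BiP, had a log2 fold change of -0.18 (SE 0.07, edgeR adjusted p = 0.0282), a call lost without M0 replicate 3, or IFNγ + LPS replicate 2 or 3 (adjusted p up to 0.144), and it shares 146 exon bases with Dcaf1 on the other strand. Creld2, a luminal protein with an isomerase-like motif, had -0.18 (edgeR adjusted p = 0.0903) and was not called, although its groups did not overlap.

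In ERAD, the 3 largest rises were those of Edem2, Ubxn4 and Syvn1. Edem2, which takes the first mannose off a misfolded glycoprotein (ENSMUSG00000038312.10, chromosome 2 from 155701677 to 155729475), read 60.0, 55.5 and 55.6 CPM in M0, 103, 109 and 103 after IFNγ + LPS. The stimulated libraries were all far above the M0 libraries, with a log2 fold change of 0.88 (SE 0.07, edgeR adjusted p = 2.50e-17), and of 0.41 under scaling by library size. Ubxn4, a membrane anchor for the extraction ATPase (ENSMUSG00000026353.9, chromosome 1 from 128243964 to 128279378), read 73.7, 79.0 and 80.3 CPM in M0, 122, 134 and 133 after IFNγ + LPS. Its groups were separate, with a log2 fold change of 0.74 (SE 0.06, edgeR adjusted p = 8.93e-16). Syvn1, the ubiquitin ligase at the core of the degradation channel (ENSMUSG00000024807.17, chromosome 19 from 6046576 to 6053712), read 37.3, 38.0 and 39.5 CPM in M0, 64.0, 57.8 and 53.0 after IFNγ + LPS. It was higher in each stimulated library, with a log2 fold change of 0.60 (SE 0.09, edgeR adjusted p = 1.44e-08), but scaling by library size ended the call at 0.13. Syvn1 shares 91 exon bases with Mrpl49 on the other strand.

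Smaller rises were seen for Derl1 and Derl2, membrane proteins of the retrotranslocation channel, and for Os9, a lectin that delivers glycoproteins to it. Derl1 read 104, 101 and 98.7 CPM in M0, 114, 120.1 and 111 after IFNγ + LPS. Derl2 read 51.7, 56.2 and 61.1 CPM in M0, 67.4, 60.8 and 71.7 after IFNγ + LPS. Derl1 did not overlap between groups, whereas the lowest stimulated library of Derl2 lay just under its highest M0 library. Their log2 fold changes were 0.19 (SE 0.06, edgeR adjusted p = 0.00634) and 0.24 (SE 0.08, edgeR adjusted p = 0.00485), the call of Derl2 being lost without IFNγ + LPS replicate 3 (adjusted p up to 0.0517). Derl2 shares 231 exon bases with Mis12 on the other strand. Os9 had 0.14 (edgeR adjusted p = 0.0244), which was no longer past the threshold without M0 replicate 1, or IFNγ + LPS replicate 2 or 3 (adjusted p up to 0.120), nor with DESeq2, RLE size factors or no filter on low counts, over which adjusted p ran up to 0.101. All 3 genes changed direction under scaling by library size, to -0.28, -0.23 and -0.33.

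The ERAD gene with the largest fall was Herpud1, a membrane scaffold of the ligase complex (ENSMUSG00000031770.15, chromosome 8 from 94386438 to 94395377). It read 35.2, 41.7 and 35.5 CPM in M0, 17.9, 18 and 15.0 after IFNγ + LPS. The groups did not overlap, with a log2 fold change of -1.15 (SE 0.11, edgeR adjusted p = 3.34e-13). Sel1l, the adaptor that holds the Syvn1 ligase in place, had -0.48 (edgeR adjusted p = 5.80e-11). The other mannose-trimming enzymes moved against Edem2, with -0.23 for Edem1 and -0.33 for Edem3 (edgeR adjusted p = 8.84e-05 and 2.21e-05). Summed over the 10 genes, ERAD stood, under TMM, at 1202 ± 11.0 CPM (SD, n = 3) in M0 and 1205 ± 24.4 after IFNγ + LPS, so that rises and falls left the sum within its spread on this scale. As a share of all counted reads, which amounts to scaling by library size, it was 0.143% ± 0.00131 and 0.103% ± 0.00139, without overlap. On that scale 59.5% of the 11760 genes tested were lower, and their median stood at -0.46 in log2. The lower share is thus not particular to ERAD.

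In the translocon, which threads new chains into the ER, Sec61b fell from 33.4 ± 2.32 CPM (SD, n = 3) to 22.3 ± 1.01, with a log2 fold change of -0.58 (SE 0.11, edgeR adjusted p = 3.07e-06). Near-identical copies of part of its transcript exist in 3 pseudogenes, which had at most 2 reads each where they were counted. Sec63, which couples the channel to BiP, had -0.24 (edgeR adjusted p = 0.00756). The channel subunit Sec61a1, its partner Sec62 and Bcap31, a sorting receptor of the ER membrane, were not called, with log2 fold changes of 0.09, -0.05 and 0.05 (edgeR adjusted p = 0.146, 0.559 and 0.476). Under scaling by library size all 3 would be lower.

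**Figure D4:**
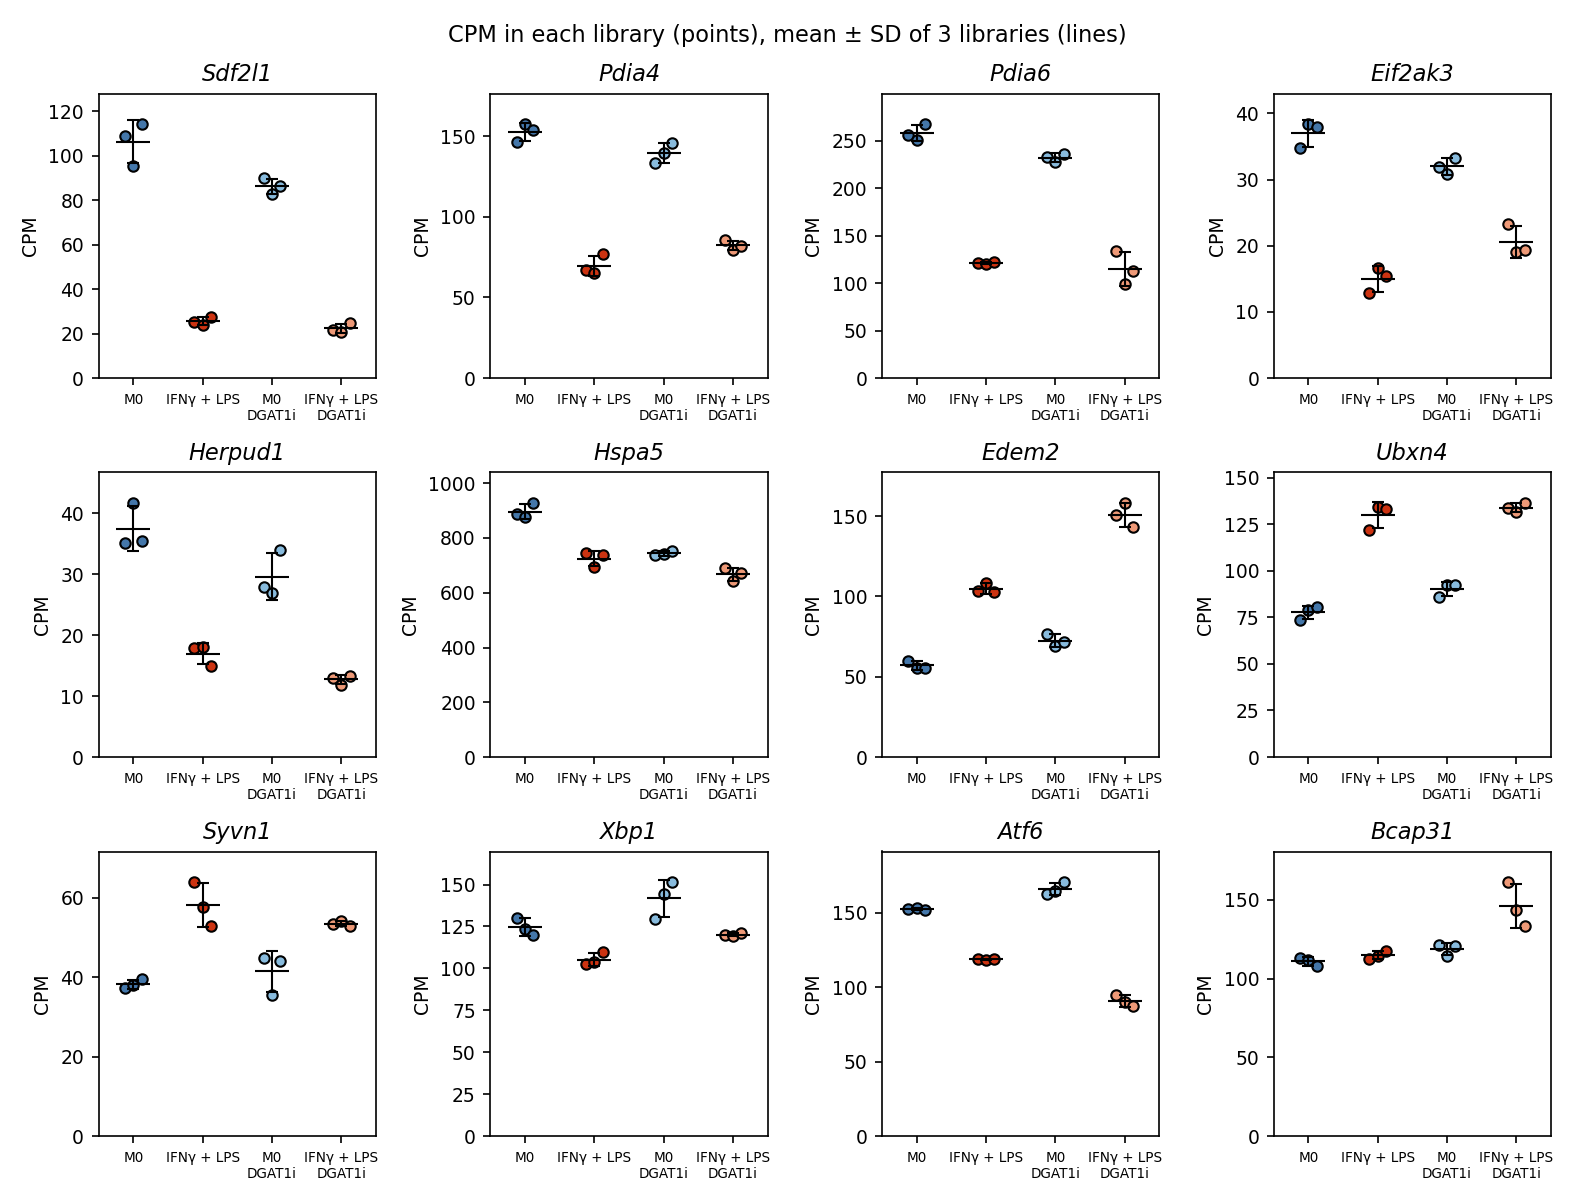
CPM of 12 members in each of the 12 libraries (points), with the mean ± SD of each group of 3 (lines), on axes that start at 0. Sdf2l1, Pdia4, Pdia6, Eif2ak3 and Herpud1 are lower in both IFNγ + LPS groups than in both M0 groups, Edem2, Ubxn4 and Syvn1 higher, and Edem2 is highest after IFNγ + LPS with DGAT1i, at 151, 158 and 143 CPM.

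Set beside the promoter letters, 7 of the 10 members with ERSE or ERSE-II fell after IFNγ + LPS and 2 rose, against the 36.2% lower and 37.1% higher among all genes, with a median log2 fold change of -0.56. Scaling by library size gave 0 of the 10 higher and 9 lower, against 19.9% and 59.5% of all genes. Of the 20 members with a promoter entry and without these letters, 12 fell and 4 rose, with a median of -0.21. Sdf2l1, Eif2ak3 and Pdia4, 3 of the 4 largest falls, were among those without the letters. The holders Herpud1 and Syvn1, both shown above, moved in opposite directions under TMM, but the rise of Syvn1 was not called under scaling by library size. These are counts over a short list and were not tested.

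The next comparison asks what DGAT1i did in resting macrophages, and 2 of 5 chaperones, 1 of 4 disulfide isomerases, 2 of 4 DnaJ proteins and 2 of 3 other luminal factors fell, with 0 of these folding genes higher. By edgeR's test 10 members fell, 6 rose and 19 were not past the threshold, against 13.4% lower and 11.0% higher among all genes, with medians of -0.03 and 0.00. Without replicate 2 of M0 with DGAT1i only 2 members were higher and 5 lower, and without replicate 1 of M0 2 were higher. Changes were small beside those of activation, with log2 values from -0.34 to 0.35. The summed level of the macrophage markers was 13131 to 14358 CPM in M0 and 16054 to 18075 with DGAT1i. Lyz2 went from 9641 to 13045 CPM on average and Cd68 from 1043 to 1333, whereas Adgre1 (1316 and 1164), Csf1r (1261 and 1181) and Cd14 (168 and 98.2) were at lower values with the inhibitor, and the part of these markers in the results was not tested. Scaling by library size gave 2 members higher and 14 lower, against 7.53% and 17.8% of all genes: it ended the calls of Xbp1, Edem3, Os9 and Ubxn4 and took Eif2ak3, Pdia4, Pdia6 and Sec61a1 past the threshold as lower, so that 3 of the 4 disulfide isomerases were lower. Calls for Hspa5, Hsp90b1, Dnajc10, Sdf2l1 and Edem2 held without any single library.

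Hspa5 read 737, 742 and 753 CPM in M0 with DGAT1i, below each of the M0 libraries given above. The log2 fold change was -0.27 (SE 0.05, edgeR adjusted p = 1.99e-05). Hsp90b1 read 688, 693 and 701 CPM, again below each M0 library, with -0.21 (SE 0.05, edgeR adjusted p = 0.00206). For Sdf2l1 the values with DGAT1i were 89.7, 82.9 and 86.2 CPM. None reached the lowest M0 library, and the log2 fold change was -0.30 (SE 0.07, edgeR adjusted p = 0.000433). Dnajc10 (ENSMUSG00000027006.13, chromosome 2 from 80315466 to 80354043) read 93.6, 84.7 and 84.0 CPM in M0 and 72.0, 73.3 and 74.0 with DGAT1i, which did not overlap, with -0.26 (SE 0.06, edgeR adjusted p = 0.00169). The lectin chaperones Calr and Canx did not pass the test, at 0.07 and -0.05 (edgeR adjusted p = 0.412 and 0.515), and neither did Hyou1 at 0.05.

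Other falls in M0 were less firm. Herpud1 read 27.9, 27.0 and 34.0 CPM with DGAT1i, all below M0, with a log2 fold change of -0.34 (SE 0.10, edgeR adjusted p = 0.00655), a call lost without M0 replicate 2, or M0 with DGAT1i replicate 2 (adjusted p up to 0.0953). Creld2 read 41.4, 40.9 and 37.7 CPM in M0 and 30.4, 30.7 and 37.5 with DGAT1i. Its highest DGAT1i library came close to the lowest M0 library, and the log2 fold change of -0.28 (SE 0.09, edgeR adjusted p = 0.0189) was no longer called without M0 replicate 1 or 2, or M0 with DGAT1i replicate 1 or 2 (adjusted p up to 0.119). Dnajc3, Edem1, Pdia3 and Sel1l had log2 fold changes of -0.20, -0.17, -0.15 and -0.15 (edgeR adjusted p = 0.00754, 0.0104, 0.0230 and 0.0370). The call of Dnajc3 was lost without M0 replicate 3 (adjusted p up to 0.0798), that of Edem1 without M0 replicate 1, or M0 with DGAT1i replicate 2 (adjusted p up to 0.0736), that of Pdia3 without M0 replicate 3, or M0 with DGAT1i replicate 2 or 3 (adjusted p up to 0.165) and that of Sel1l without M0 replicate 1 or 3, or M0 with DGAT1i replicate 1 or 2 (adjusted p up to 0.164).

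Among the members that rose in M0, Edem2 read 76.8, 69.3 and 71.4 CPM with DGAT1i, all above the M0 libraries. The log2 fold change was 0.35 (SE 0.07, edgeR adjusted p = 6.29e-05). Ubxn4 read 85.8, 92.6 and 92.5 CPM, also above M0, with 0.22 (SE 0.06, edgeR adjusted p = 0.00754), a call lost without M0 replicate 1 (adjusted p up to 0.0661). Sec63 (ENSMUSG00000019802.13, chromosome 10 from 42761496 to 42832514) read 54.6, 61.7 and 61.7 CPM in M0 and 68.0, 74.1 and 70.3 with DGAT1i. Its groups were separate, with 0.25 (SE 0.07, edgeR adjusted p = 0.00718), lost without M0 replicate 1, or M0 with DGAT1i replicate 2 (adjusted p up to 0.0826).

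Edem3, the remaining mannosidase-like ERAD factor, read 94.0, 91.0 and 105 CPM in M0 and 107, 118 and 110.1 with DGAT1i, with no overlap and a log2 fold change of 0.21 (SE 0.06, edgeR adjusted p = 0.0111), lost without M0 replicate 1 or 2, or M0 with DGAT1i replicate 2 (adjusted p up to 0.101). Xbp1 read 129.5, 144 and 152 CPM with DGAT1i, its lowest value lying within the M0 range, with 0.19 (SE 0.06, edgeR adjusted p = 0.0140), lost without M0 replicate 2 or 3, or M0 with DGAT1i replicate 2 or 3 (adjusted p up to 0.146). Os9 read 158, 172 and 168 CPM in M0 and 170.0, 191 and 193 with DGAT1i. Its groups overlapped and the log2 fold change of 0.15 (SE 0.06, edgeR adjusted p = 0.0395) was lost without M0 replicate 1 or 3, or M0 with DGAT1i replicate 2 or 3 (adjusted p up to 0.201). Under DESeq2 these 3 calls and that of Sec63 did not pass, which left Edem2 and Ubxn4 as the members called higher.

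In macrophages stimulated with IFNγ + LPS, the same inhibitor raised 8 members, lowered 9 and left 18 short of the threshold, against 13.5% of all genes higher and 16.3% lower. The medians were -0.08 over members and -0.01 over all genes. Of the 4 genes of sensors and their target 2 rose and 1 fell, and of the 10 ERAD genes 2 rose and 3 fell. Of the 5 chaperones 1, Hyou1, was called, but without replicate 1 of IFNγ + LPS with DGAT1i 4 of the 5 were lower, with Canx (adjusted p = 0.00340), Hsp90b1 (0.0276) and Hspa5 joining it, and 0 ERAD genes were lower. With all libraries Canx and Hsp90b1 stood at -0.12 and -0.08 (edgeR adjusted p = 0.0880 and 0.297). Pdia6 (-0.07) and Creld2 (-0.27), not called with all libraries (edgeR adjusted p = 0.488 and 0.0555), also passed as lower without that library. Counts leaned on single libraries: 3 members were higher without replicate 2 of IFNγ + LPS, 5 higher and 5 lower without its replicate 1, and 5 lower without replicate 3 of IFNγ + LPS with DGAT1i. Edem2, Bcap31, Atf6 and Sec61a1 kept their calls without any single library. Between these groups the summed neutrophil markers were higher with DGAT1i, with S100a8 at 9.13 CPM without and 34.5 CPM with it on average and Ly6g at 0 reads in both, and the dendritic cell markers, mostly Xcr1, summed to 5.62 to 7.16 CPM without and 1.04 to 1.40 CPM with it. The part of either in the results below was not tested.

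Edem2 rose further, to 151, 158 and 143 CPM, above the 103, 109 and 103 CPM without the inhibitor. The log2 fold change was 0.52 (SE 0.06, edgeR adjusted p = 1.87e-09), the largest rise among the members here as in M0. Bcap31 (ENSMUSG00000002015.5, chromosome X from 73686178 to 73716175) read 113, 114 and 118 CPM without and 161, 144 and 133 CPM with DGAT1i. All 3 libraries with the inhibitor were higher, with 0.35 (SE 0.06, edgeR adjusted p = 1.85e-05). Atf6 read 94.9, 89.9 and 87.3 CPM with DGAT1i, below the 3 stimulated libraries, which were nearly equal. The log2 fold change was -0.39 (SE 0.06, edgeR adjusted p = 1.77e-06). Sec61a1, which forms the channel (ENSMUSG00000030082.14, chromosome 6 from 88503579 to 88518905), read 171, 174 and 165 CPM without and 149, 142 and 139.9 CPM with it. Its groups did not overlap, with -0.24 (SE 0.06, edgeR adjusted p = 0.000741).

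Eif2ak3 read 23.3, 19.0 and 19.4 CPM with DGAT1i, above the 12.8, 16.7 and 15.4 CPM without it but below every M0 library. The log2 fold change of 0.45 (SE 0.13, edgeR adjusted p = 0.00759) was lost without IFNγ + LPS replicate 1, or IFNγ + LPS with DGAT1i replicate 1 (adjusted p up to 0.0800). Pdia4 read 85.4, 79.5 and 82.0 CPM with DGAT1i, each above the stimulated libraries, with 0.24 (SE 0.07, edgeR adjusted p = 0.00846), lost without IFNγ + LPS replicate 2 (adjusted p up to 0.0819). P4hb read 448, 412 and 461 CPM without and 538, 482 and 491 CPM with it. The groups did not overlap, and its 0.19 (SE 0.05, edgeR adjusted p = 0.00355) was lost without IFNγ + LPS replicate 2 (adjusted p up to 0.0563).

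Derl2 read 80.1, 78.0 and 78.0 CPM with DGAT1i, above each stimulated library, with 0.24 (SE 0.08, edgeR adjusted p = 0.0148), lost without IFNγ + LPS replicate 2 (adjusted p up to 0.143). Sec63 read 51.0, 49.9 and 50.2 CPM without and 52.7, 67.6 and 58.1 CPM with it. The libraries with the inhibitor spread widely, and its 0.24 (SE 0.09, edgeR adjusted p = 0.0280) was lost without IFNγ + LPS replicate 1, 2 or 3, or IFNγ + LPS with DGAT1i replicate 2 (adjusted p up to 0.341). Xbp1 read 120.0, 119.5 and 121 CPM with DGAT1i, a narrow range above the stimulated libraries, with 0.19 (SE 0.07, edgeR adjusted p = 0.0223), lost without IFNγ + LPS replicate 1 or 2, or IFNγ + LPS with DGAT1i replicate 2 or 3 (adjusted p up to 0.0861).

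Of the falls, Herpud1 had the largest, with 13.0, 11.9 and 13.3 CPM, all below the stimulated libraries. Its -0.41 (SE 0.15, edgeR adjusted p = 0.0304) was lost without IFNγ + LPS replicate 1 or 2, or IFNγ + LPS with DGAT1i replicate 1 or 2 (adjusted p up to 0.109). Dnajb9 (ENSMUSG00000014905.3, chromosome 12 from 44205559 to 44210326) read 26.1, 22.5 and 24.2 CPM without and 16.1, 20.2 and 18.4 CPM with DGAT1i. The groups were separate, and its -0.41 (SE 0.13, edgeR adjusted p = 0.0139) was lost without IFNγ + LPS replicate 1, or IFNγ + LPS with DGAT1i replicate 1 (adjusted p up to 0.0933). Manf read 69.7, 64.6 and 62.2 CPM without and 58.3, 49.0 and 55.3 CPM with it, with -0.27 (SE 0.08, edgeR adjusted p = 0.00851), lost without IFNγ + LPS replicate 1, or IFNγ + LPS with DGAT1i replicate 2 (adjusted p up to 0.0868).

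Derl1 read 99.6, 104 and 100.2 CPM with DGAT1i, below each stimulated library, with -0.18 (SE 0.06, edgeR adjusted p = 0.0269), lost without IFNγ + LPS replicate 2, or IFNγ + LPS with DGAT1i replicate 1 or 3 (adjusted p up to 0.119). Hyou1 read 136, 132 and 141 CPM without and 123, 120.4 and 117 CPM with it. These did not overlap, and -0.18 (SE 0.06, edgeR adjusted p = 0.0179) was lost without IFNγ + LPS replicate 3, or IFNγ + LPS with DGAT1i replicate 3 (adjusted p up to 0.0766). Dnajb11 and Sel1l had log2 fold changes of -0.18 and -0.16 (edgeR adjusted p = 0.0313 and 0.0392). The first was lost without IFNγ + LPS replicate 2 or 3, or IFNγ + LPS with DGAT1i replicate 3 (adjusted p up to 0.156) and the other without IFNγ + LPS replicate 1 or 2, or IFNγ + LPS with DGAT1i replicate 1 or 3 (adjusted p up to 0.213). With DESeq2 the calls of Xbp1, Sec63, Herpud1, Dnajb11, Sel1l and Derl1 did not pass, of which those of Dnajb11, Sel1l and Derl1 did not pass with the 6 libraries compared alone either (adjusted p = 0.0627, 0.0954 and 0.0593), and without the filter on low counts those of Xbp1, Sec63, Pdia4 and Derl2 did not, whereas Hspa5, Canx and Creld2 passed as lower. Hspa5 read 691, 643 and 671 CPM with DGAT1i against 744, 693 and 738 CPM without it, which did not overlap, but its log2 fold change of -0.12 (edgeR adjusted p = 0.0723) was not past the threshold, and it passed with IFNγ + LPS replicate 2 left out, or IFNγ + LPS with DGAT1i replicate 1, with adjusted p between 0.0314 and 0.239 over single libraries left out and 0.0413 without the filter.

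The last comparison took the response to DGAT1i in stimulated macrophages minus the response in M0, which asks whether activation changed what the inhibitor did. It draws on all 4 groups, so that it shares its libraries with the comparisons above and is not independent of them. The difference was above 0 for 5 members and below 0 for 3, with 27 not past the threshold, against 8.66% above and 9.8% below among all genes, and with medians of -0.01 in both. Leaving out single libraries gave 3 to 5 members above 0 and 2 to 5 below. Of the 3 sensors, Eif2ak3 and Atf6 differed in opposite directions.

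Eif2ak3 had a log2 fold change of -0.21 with DGAT1i in M0 and of 0.45 in stimulated macrophages, a difference of 0.66 (SE 0.16, edgeR adjusted p = 0.00203). Atf6 had 0.12 and -0.39, a difference of -0.51 (SE 0.08, edgeR adjusted p = 4.31e-06). In M0 neither response passed the threshold (edgeR adjusted p = 0.0913 and 0.0927). Pdia4 went from -0.13 to 0.24, with a difference of 0.37 (SE 0.09, edgeR adjusted p = 0.00244). Dnajc10 fell in M0, at -0.26, and read 75.0, 78.1 and 76.2 CPM without and 88.1, 83.0 and 80.1 CPM with DGAT1i after IFNγ + LPS, which gave 0.13 (edgeR adjusted p = 0.163) and a difference of 0.39 (SE 0.10, edgeR adjusted p = 0.00210). These 4 differences held without any single library, with log2 values of 0.56 to 0.74 for Eif2ak3, -0.55 to -0.49 for Atf6, 0.32 to 0.45 for Pdia4 and 0.34 to 0.42 for Dnajc10.

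Differences for Derl1, Bcap31, Hyou1 and Edem1 were smaller and less firm. That of Derl1 was -0.30 (SE 0.09, edgeR adjusted p = 0.0114), from 0.12 in M0 to -0.18 after IFNγ + LPS, and was lost without M0 with DGAT1i replicate 2 (adjusted p up to 0.0510) and with DESeq2. That of Bcap31 was 0.25 (SE 0.09, edgeR adjusted p = 0.0399) and was lost without M0 replicate 1 or 2, IFNγ + LPS replicate 1, 2 or 3, M0 with DGAT1i replicate 2, or IFNγ + LPS with DGAT1i replicate 1 or 2 (adjusted p up to 0.187). Hyou1 differed by -0.23 (SE 0.08, edgeR adjusted p = 0.0355), lost without M0 replicate 2, IFNγ + LPS replicate 1 or 3, M0 with DGAT1i replicate 3, or IFNγ + LPS with DGAT1i replicate 2 or 3 (adjusted p up to 0.0985), and Edem1 by 0.21 (SE 0.07, edgeR adjusted p = 0.0419), lost without M0 replicate 1 or 2, IFNγ + LPS replicate 1 or 2, M0 with DGAT1i replicate 2 or 3, or IFNγ + LPS with DGAT1i replicate 2 or 3 (adjusted p up to 0.123). Edem1 read 332, 317 and 317 CPM in M0 and 294, 278 and 287 with DGAT1i, then 267, 272 and 284 CPM after IFNγ + LPS and 268, 286 and 291 with both. The first pair was separate and the other overlapped. For Edem2, which rose with DGAT1i in both states, the difference of 0.18 was not past the threshold (standard error 0.09, edgeR adjusted p = 0.194).

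**Figure D5:**
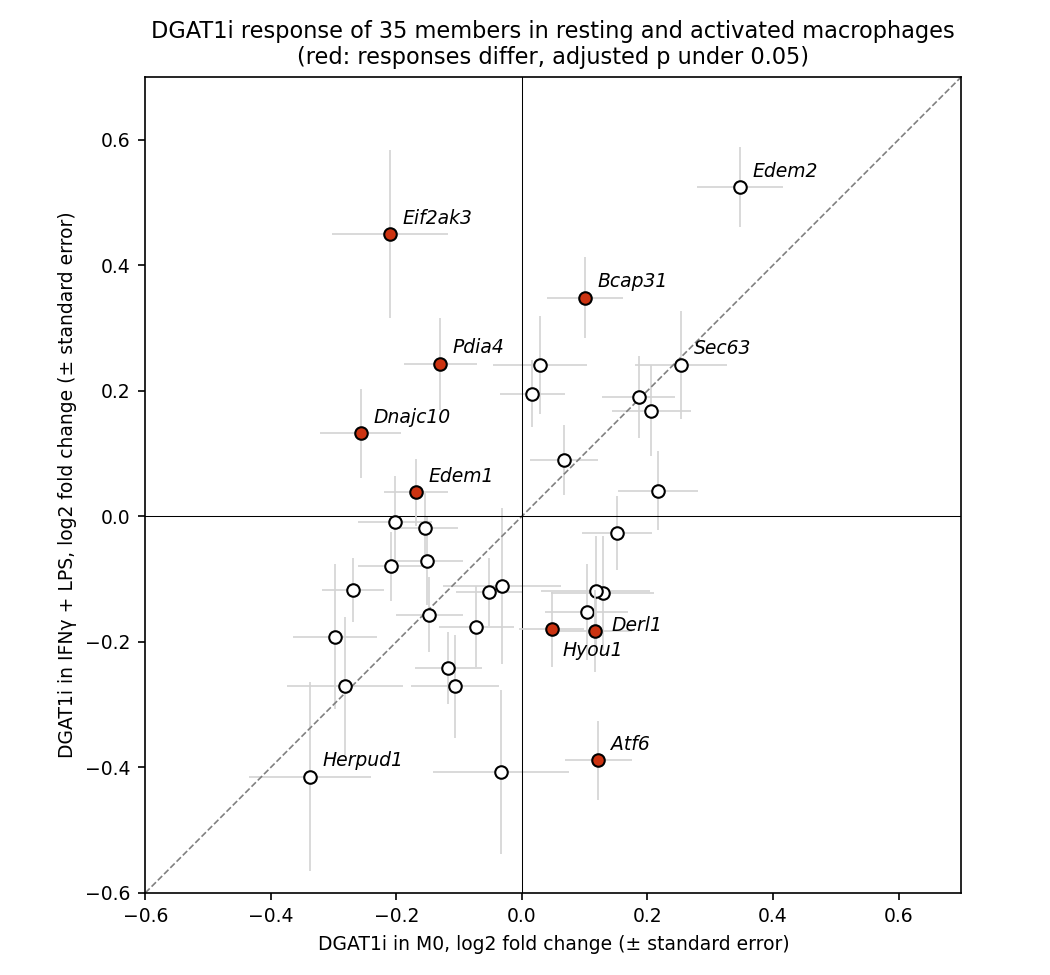
Log2 fold change with DGAT1i in M0 (horizontal) against that in IFNγ + LPS (vertical) for the 35 members, each ± its standard error; red marks the 8 whose responses differ and the dashed line marks equal responses. Edem2 stands at 0.35 and 0.52, Eif2ak3 at -0.21 and 0.45, and Atf6 at 0.12 and -0.39.

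By promoter letters, 0 of the 10 members with ERSE or ERSE-II rose with DGAT1i and 5 fell in M0, and 0 rose and 2 fell after IFNγ + LPS, with median log2 fold changes of -0.18 and -0.12. Over all genes 11.0% were higher and 13.4% lower in M0, and 13.5% higher and 16.3% lower after IFNγ + LPS. Of the 20 without the letters, 6 rose and 5 fell in M0, and 8 rose and 2 fell after IFNγ + LPS, with medians of 0.02 and 0.09. In M0 the 5 that fell were Hspa5, Hsp90b1, Dnajc3, Creld2 and Herpud1. Single libraries moved these counts. Among the 10 holders 3 fell in M0 without replicate 2 of M0 or replicate 2 of M0 with DGAT1i, and after IFNγ + LPS 6 fell without replicate 1 of IFNγ + LPS with DGAT1i and 1 without any other library of the stimulated groups, with 0 rising in each case. Among the 20 others 2 rose in M0 without replicate 1 of M0 or replicate 2 of M0 with DGAT1i, and 3 fell without replicate 1 or 3 of M0 and 2 without replicate 2 of M0 with DGAT1i. After IFNγ + LPS 5 of the 20 rose and 0 fell without replicate 1 of IFNγ + LPS, 3 rose and 1 fell without its replicate 2, 0 fell without replicate 1 of IFNγ + LPS with DGAT1i, and 1 fell without its replicate 3. These counts carry no test.

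Around the members, 95 other tested genes of the same pathways were read from lists of the ER and the UPR. After IFNγ + LPS, 44 of them were higher and 32 lower by edgeR's test, with a median log2 fold change of 0.09, against 37.1% higher and 36.2% lower among all genes. Scaling by library size gave 21 higher and 54 lower, against 19.9% and 59.5% of all genes. Relative to the median of all genes that of the 95 was 0.08 under both scalings, which again follows by construction. The counts under scaling by library size given below for single lists stand against the same shares. N-glycosylation and glycan trimming had 2 higher and 11 lower of 17, with Uggt1, the sensor that re-glucosylates unfolded glycoproteins, at -1.21, the oligosaccharyltransferase subunit Stt3b at -0.99 and the glucosidase subunit Prkcsh at 0.81. Other oxidoreductases and prolyl isomerases had 2 higher and 9 lower of 16, with Txndc5 at -1.17 and the oxidase gene Ero1l at 1.48. A list of the signal peptidase, the SRP receptor, the TRAP complex and Tram1, which is a subunit of none of them, had 4 of 14 higher and 6 lower. Tram1 stood at -1.32 and Srpr at 0.56. Under scaling by library size 0 of these 14 were higher and 11 lower, and the 2 lists before it kept most calls on the lower side, with 16 and 15 lower.

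The other ERAD factors had 15 higher and 1 lower of 19, with a median of 0.46, the ubiquitin ligase Rnf139 at 1.28, Aup1 at 1.01 and the ligase March6 at -0.72. Scaling by library size left 6 of them higher and 5 lower. All 10 genes of the ATF4 and PERK branch were higher under both scalings, with a median of 1.91 under TMM and with Nupr1 at 4.11 and Cebpb at 3.43, while the kinase gene Eif2ak3 fell. Other Hsp70 co-factors had 5 higher and 2 lower of 11, among them Dnajc16 at 0.63, and 0 higher and 5 lower under scaling by library size. Their median relative to all genes was 0.18, which by construction hardly depends on the scaling. Of 9 other stress transducers 6 were higher and 3 lower, with the transcription factor gene Creb3 at 1.52, its relative Creb3l2 at -1.46 and Mbtps1, the protease that cleaves ATF6, at -1.12, and scaling by library size left 3 higher and 3 lower.

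With DGAT1i in stimulated macrophages 11 of the 95 were higher and 20 lower, and in M0 14 were higher and 7 lower, against 13.5% and 16.3%, and 11.0% and 13.4%, of all genes. Scaling by library size gave 9 higher and 12 lower in M0, against 7.53% and 17.8% of all genes, and the counts above in stimulated macrophages. Ero1l, which reoxidises the disulfide isomerases, was higher in both, at 0.54 and 0.37, and the ERAD factor gene Selenos was lower in both, at -0.78 and -0.42. Of the ATF4 and PERK branch 5 were lower and 1 higher in stimulated macrophages, and 4 were higher in M0. Asns, which makes asparagine, stood at -0.89 and 0.50 in these comparisons. The difference between the responses was above 0 for 3 of the 95 genes and below 0 for 12, against 8.66% and 9.8% of all genes, among them 5 of the ATF4 and PERK branch.

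The members did not share one pattern over the 12 libraries. Against the mean of their standardised log2 CPM, Canx followed the mean most closely with a Pearson r of 0.990, whereas Ubxn4 and Edem2 ran against it with r of -0.936 and -0.936. Outside the 35 genes, the RNA helicase gene Ddx3x (r of 0.987), the lipase gene Lpl (0.986) and Tmco1 (0.984), the gene of an ER membrane protein, were most like the mean among tested genes whose average log2 CPM reached 4. The 12 libraries fall into 4 groups, and these values mainly describe the order of the groups.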

How the data were processed

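The authors deposited counts of reads per gene for 12 libraries, without normalization. Per the labels, GRCm38 and DESeq2 are named in the submitters' processing notes, and not given in the sources used here are the aligner, the counting tool, the annotation release and the use of strand in counting. The study names a stranded mRNA kit and the labels another kit. Gene symbols and positions came from GENCODE release M21 on GRCm38, and 47224 of 47937 identifiers matched it once the version was dropped. edgeR 4.0.16 in R 4.3.3 was used for the tests: filterByExpr kept 11760 genes, TMM scaled the libraries, and glmQLFit (robust) and glmQLFTest took the 12 libraries in 1 model of group means. P-values were adjusted by Benjamini-Hochberg over the genes tested, and an adjusted p under 0.05 was a call. The common biological coefficient of variation was 0.0507. Replicates had r of 0.988 to 0.992 with each other (log2 CPM) and differed by 1.90 to 3.96 times counting noise (chi-square per gene), so none was counted as a repeat of another.

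The members and the lists of other genes were chosen with earlier results of these data known. Values per library are given for the members with the largest called changes (up to 6 in each direction per comparison), the sensors, Xbp1 and Hspa5; from other lists up to 2 called genes in each direction could be named, and the 3 most alike genes by Pearson r. Levels per kb divide CPM by exon length. Promoter windows came from RefSeq on GRCm38.p6. Alternatives were RLE size factors, library size only, no filter on low counts, a mean CPM of at least 1, DESeq2 1.42.0, the replicate number as a block, the 6 libraries compared alone, an adjusted p under 0.01, and each library left out. BLAST 2.17.0 gave copies of members, at 95% identity and 20% of the longest transcript's length. Python 3.11.15 with matplotlib 3.10.9 made the figures.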

Additional observations from a re-analysis of the deposited data

Results flagged for a closer look

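For 8 of the 35 members the response to DGAT1i differed between stimulated and resting macrophages by edgeR's interaction test, 5 above 0 and 3 below. Among all genes 8.66% were above 0 and 9.8% below, so that for a list this short the count is near the share of all genes and is not particular to the members. The differences in log2 were 0.66 for Eif2ak3, -0.51 for Atf6, 0.39 for Dnajc10, 0.37 for Pdia4, -0.30 for Derl1, 0.25 for Bcap31, -0.23 for Hyou1 and 0.21 for Edem1. Eif2ak3, Atf6, Dnajc10 and Pdia4 kept their calls without any single library and with DESeq2. Derl1 and Bcap31 were not past the threshold with DESeq2, and Hyou1 was not with DESeq2, RLE size factors or library size only. When genes with low counts were kept, Edem1 and Bcap31 were not past it. The neutrophil markers S100a8 and S100a9 were higher after IFNγ + LPS with DGAT1i (34.5 and 25.8 CPM on average, against 9.13 and 7.78 without the inhibitor), and their part in these differences was not tested.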

How the results depend on the processing

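Calls of single members were compared with those of the other settings, a direction being read only where a value was past the threshold. For IFNγ + LPS against M0, scaling by library size only gave 2 members higher, with 2340 genes higher and 7002 lower in all. It turned Dnajb11 (-0.26), Derl1 (-0.28), Derl2 (-0.23) and Os9 (-0.33) from higher to lower. Ern1 (-0.31), Sec61a1 (-0.38) and Bcap31 (-0.42), which had no call under TMM, passed the threshold as lower. In this comparison the median of all genes was -0.46 under that scaling. For DGAT1i in IFNγ + LPS, 4 members were higher without the filter on low counts and 5 lower with DESeq2; at an adjusted p under 0.01, 5 were higher and 3 lower and 1050 genes higher in all. For DGAT1i in M0, 2 members were higher with library size only and 2 with DESeq2 (825 genes in all), and at 0.01 3 were higher and 6 lower (837 genes higher in all). For the difference, 3 members were above 0 without the filter and 1 below with DESeq2; at 0.01 these were 3 and 1, with 626 and 724 genes in all. The cause was not tested, apart from the stricter threshold itself. Over single libraries left out, members higher and lower numbered 6 to 8 and 21 to 22 for IFNγ + LPS against M0 (all genes 4202 to 4468 and 4054 to 4310), 3 to 8 and 5 to 10 for DGAT1i in IFNγ + LPS (1303 to 1598 and 1602 to 1969), 2 to 6 and 5 to 11 for DGAT1i in M0 (996 to 1373 and 1274 to 1644), and 3 to 5 and 2 to 5 for the difference (869 to 982 and 1005 to 1178). For the difference, 3 members were above 0 without replicate 1 or 2 of M0, replicate 1 or 2 of IFNγ + LPS, or replicate 2 of either DGAT1i group, and 5 below 0 without replicate 3 of M0. Same-numbered libraries of different groups deviated together little, with r from -0.0217 to 0.0687 in 18 pairs (median 0.0115). In 36 pairs of different numbers r ran from -0.0580 to 0.0381 (median -0.00448). Values this weak cannot exclude that equal numbers share an animal or a culture. A fit with the replicate block changed 1 call among members, Pdia6 with DGAT1i in M0. This call was then past the threshold (log2 -0.15, edgeR adjusted p = 0.0285, against 0.00691 to 0.0773 over the other settings). With DGAT1i in IFNγ + LPS, Herpud1, at 177 reads over the 3 libraries with the inhibitor, had a standard error of 0.15 in log2, against 0.05 for Hspa5, and the part of depth in this was not tested.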
